A study of Homo sapiens with 36 samples.

Results

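A549 cells exposed for 3 weeks to cigarette smoke extract (CSE) at 10% were compared with A549 cells exposed for the same time to CSE at 1%. All 3 arrays labelled CSE 10% at 3 weeks and all 3 labelled CSE 1% at 3 weeks were taken, 6 of the 36 arrays in the series, and every gene that the array annotation gives by 1 symbol was read, 18417 genes in all. A549 is an epithelial line from a human lung adenocarcinoma that is used as a model of alveolar type II cells, so every value comes from 1 cell line. CSE is culture medium through which the smoke of burning cigarettes has been bubbled, and the percentages are dilutions of that medium. Both groups were starved of serum before the first exposure, received fresh CSE in low-serum medium every day and were replated every week. Control cells without CSE and cells with CSE 5%, also 3 arrays each at 3 weeks, are used below to place the difference between the doses. So are the arrays of 1 and 5 weeks. All 36 arrays also enter the fit that estimates the spread between arrays. The study describes its replicates as individual experiments, and every p-value rests on the spread among them.

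Smoke carries polycyclic aromatic hydrocarbons, which bind the aryl hydrocarbon receptor (AHR), a transcription factor that switches on cytochrome P450 enzymes of the CYP1 family. Its oxidants and aldehydes also damage DNA and proteins, and cells answer such damage through p53, through NRF2 and through the heat shock response. Alveolar type II cells make surfactant and divide to repair the alveolar surface, and they secrete chemokines when injured.

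At 3 weeks more genes were lower than higher with CSE 10% against CSE 1%, though this order depended on the arrays in the fit. With CSE 10%, 63 genes (0.342% of 18417) were higher and 97 genes (0.527%) were lower than with CSE 1%. Such called genes passed both limits that the study set, a log2 fold change beyond 1 together with B, the log-odds that a gene differs, above 0. The order of the gene counts reversed without CSE 1% replicate 1, with 160 higher and 117 lower genes. By transcript cluster, the unit that the array reads, 125 were higher and 130 lower with all arrays. In each of the 63 higher and 97 lower genes the 3 CSE 10% arrays did not overlap the 3 CSE 1% arrays. Over all 18417 genes, the arrays did not overlap in 3237 higher and 3087 lower genes. The thresholds read the same arrays, so the lack of overlap adds no separate evidence. At a Benjamini-Hochberg adjusted p under 0.05 in limma, 1385 genes (7.52%) were higher and 1572 genes (8.54%) were lower. That threshold is used below for single genes, and these 2 shares are the background of every list count at 3 weeks. The median log2 difference over all genes was 0.005. Most differences were moderate: 55 of the 63 higher genes and 79 of the 97 lower genes lay between 1 and 1.5 on the log2 scale. The higher genes included targets of AHR and p53, chemokines and a family of natural killer cell receptors, and the lower genes included immediate early genes, cell cycle genes, histones, enzymes of cholesterol synthesis and mucins. All levels below are the deposited log2 values, in which a difference of 1 is a doubling.

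**Figure D1:**
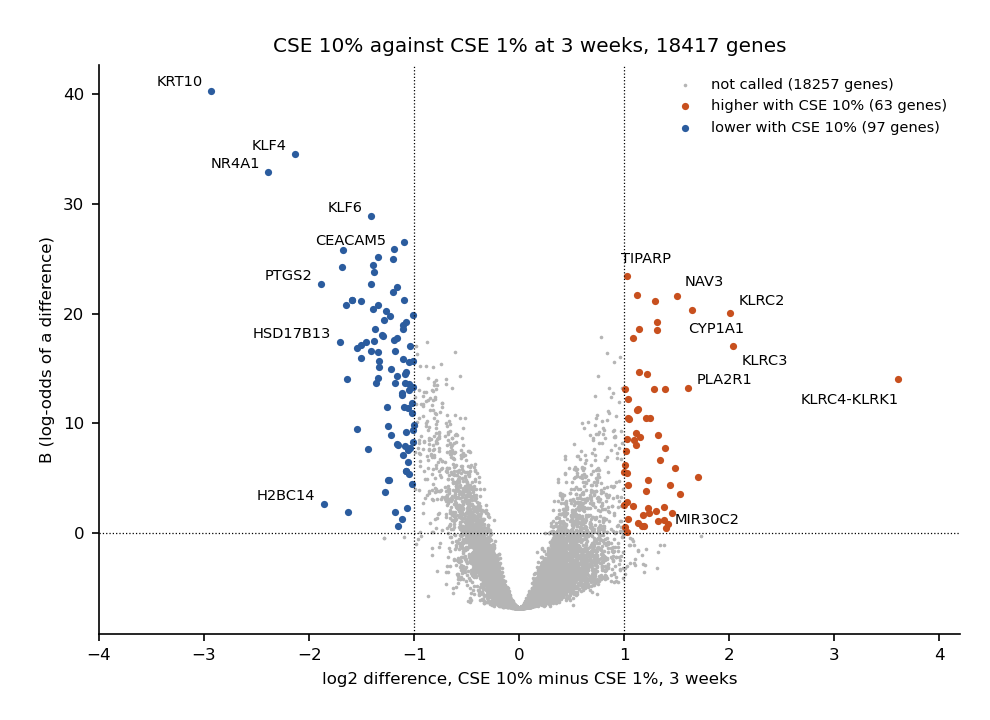
Log2 difference between CSE 10% and CSE 1% at 3 weeks (horizontal axis) against B (vertical axis) for 18417 genes, with dotted lines at the thresholds. The 63 called higher genes (right) reach 3.61 for KLRC4-KLRK1 and the 97 called lower genes (left) reach -2.93 for KRT10, which also has the highest B of the labelled genes.

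Several AHR targets were higher with CSE 10%. CYP1A1 (transcript cluster 7990391), the cytochrome P450 that oxidises polycyclic hydrocarbons, had log2 levels of 7.25, 7.09 and 7.31 with CSE 10%, against 5.52, 5.62 and 5.57 with CSE 1%. All arrays of the higher dose stood well above those of the lower, a log2 difference of 1.65 (standard error 0.13, adjusted p = 2.8e-10) or 3.14-fold. With CSE 1% CYP1A1 did not pass against control cells (log2 difference -0.05), while CSE 5% and CSE 10% stood 1.06 and 1.60 above control. The means with CSE 1% and in control, 5.57 and 5.62, lay below the first quartile of gene levels (5.90). The values carry no detection call, so the size of these CYP1A1 differences is uncertain. CYP1B1, the second inducible enzyme of the family, behaved differently in level: it lay 3.29 above control with CSE 1% already, 4.13 with CSE 5% and 4.19 with CSE 10%. Between the doses it was higher by 0.90 (adjusted p = 5e-06). TIPARP, the ADP-ribosyltransferase that represses AHR, had 12.33, 12.31 and 12.30 with CSE 10% and 11.39, 11.28 and 11.18 with CSE 1%, higher by 1.03 (adjusted p = 2.2e-11). SCIN, an actin-severing protein, was higher by 0.70 and NQO1, a quinone reductase, by 0.17 (adjusted p = 0.00029 and 0.021). NQO1 lost its call without any one of 4 arrays (adjusted p between 0.057 and 0.067, the higher one with CSE 10% replicate 1 left out). Of the 12 AHR targets measured, 5 were higher, 0 were lower and 7 did not pass, among them AHR itself (0.11), with a list median of 0.15. The promoter of CYP1A1 is shown because it belongs to the gene with the largest difference of this list. It runs from 250 bases before to 50 after the start (RefSeq, GRCh38.p14, chr15:74725479-74725778, minus strand), and the capitals mark the xenobiotic response element core GCGTG, which starts at position -57. This core or its reverse complement stands in 7 of the 10 list promoters in RefSeq's table and in 36.3% of all 27305 promoters there. It is as frequent in promoters of other lists, with 17 of 27 for mitosis and 16 of 21 for cholesterol and fatty acid synthesis.
CYP1A1: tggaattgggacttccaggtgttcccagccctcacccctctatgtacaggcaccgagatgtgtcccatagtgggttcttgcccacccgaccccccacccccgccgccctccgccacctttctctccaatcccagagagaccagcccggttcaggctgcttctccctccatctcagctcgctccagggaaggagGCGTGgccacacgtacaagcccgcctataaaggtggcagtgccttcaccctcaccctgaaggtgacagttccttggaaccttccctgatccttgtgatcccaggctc

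The largest differences upward were those of natural killer cell receptor genes, lectin-like receptors that lie next to each other in the genome. KLRC4-KLRK1 (7961173), a read-through of 2 such genes, had 8.02, 8.14 and 7.58 with CSE 10%, against 3.86, 4.92 and 4.15 with CSE 1%, a log2 difference of 3.61 (standard error 0.37, adjusted p = 5.8e-08). KLRC3 (7961175) had 6.63, 6.81 and 6.88 with CSE 10% and 4.85, 4.98 and 4.38 with CSE 1%, a log2 difference of 2.04 (adjusted p = 4.3e-09). KLRC2 had 6.67, 6.63 and 6.41 with CSE 10% and 4.65, 4.54 and 4.48 with CSE 1%, a difference of 2.01 (adjusted p = 3.5e-10). No arrays of the doses overlapped in any of the 3 genes. With CSE 1% all 3 lay below the first quartile of gene levels (5.90), and the values carry no detection call, so the size of these differences is uncertain. KLRC2 and KLRC3 are near-identical copies and the read-through overlaps its component genes, so the array may not separate them and they are not counted as independent. CSE 1% lay within 0.40 of control for all 3, and CSE 5% was 2.27 above control for KLRC4-KLRK1, 1.54 for KLRC3 and 1.29 for KLRC2. The mean log2 level of 7 leukocyte markers was 6.28 to 6.35 on the CSE 10% arrays and 6.27 to 6.34 on the CSE 1% arrays. The members went different ways: CD68, a lysosomal protein, was higher by 0.71 and LYZ, lysozyme, was lower by 0.78 on the log2 scale (adjusted p = 0.00014 and 0.0019), while PTPRC, the leukocyte antigen CD45, and CD3E of T cells did not pass (-0.01 and 0.04). The part of leukocyte transcripts in the KLRC values was not tested.

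Genes that p53 activates were more often higher than lower. Of 21 p53 targets, 11 were higher and 1 was lower (2 without CSE 1% replicate 1), with a median of 0.37, against 7.52% and 8.54% of all genes. TP53INP1, a stress-induced protein of autophagy, had 8.77, 8.74 and 8.80 with CSE 10% and 7.46, 7.71 and 7.73 with CSE 1%, a log2 difference of 1.14 (standard error 0.11, adjusted p = 3.4e-08). FAS, a death receptor, was higher by 0.90, and SESN1, which restrains mTORC1, by 0.81 (adjusted p = 2.8e-06 and 3e-06). MDM2, the ubiquitin ligase that degrades p53, was higher by 0.81 and GDF15, a secreted stress factor, by 0.62 (adjusted p = 0.00022 and 5e-05). The values of CDKN1A, the p21 cell cycle inhibitor, and of BAX, which permeabilises mitochondria, were 0.13 and 0.07 and did not pass. AEN, an exonuclease, was the one lower member, by 0.55. With CSE 10%, FAS, SESN1 and MDM2 were above control (0.52, 0.63 and 0.41). With CSE 1%, FAS was below control (-0.38, adjusted p = 0.029), and the values of SESN1 and MDM2, -0.18 and -0.41, did not pass (adjusted p = 0.36 and 0.065). TP53INP1 went the other way with CSE 1%, 0.78 above control (adjusted p = 1.3e-05), and was 1.92 above control with CSE 10%.

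Inflammatory mediators were split between higher and lower genes. CCL2, which attracts monocytes, had 10.14, 10.24 and 10.42 with CSE 10%, against 9.04, 8.92 and 9.39 with CSE 1%, a log2 difference of 1.15 (standard error 0.15, adjusted p = 4.7e-06). CXCL1, which attracts neutrophils, had 10.60, 10.44 and 10.48 with CSE 10% and 9.41, 9.43 and 9.64 with CSE 1%, a difference of 1.01 (adjusted p = 1.2e-07), and CXCL8, interleukin 8, was higher by 0.98 (adjusted p = 7.3e-06). The arrays of the doses did not overlap in these 3 genes, yet all 3 stood highest with CSE 5%: against control, CCL2 was higher by 1.95 with CSE 1%, 3.90 with CSE 5% and 3.10 with CSE 10%. CCL28 of mucosal epithelium and CXCL12 of stromal cells were lower by 0.79 and 0.58 on the log2 scale (adjusted p = 0.00025 and 0.00098). In all, 5 of 19 chemokines were higher and 3 lower (median -0.02). Of 21 interleukins and growth factors of inflammation, 7 were higher and 2 lower (median 0.14), with 0 lower without CSE 1% replicate 3 or CSE 10% replicate 2 or 3. TNFSF10, the death ligand TRAIL, was higher by 1.32, TNFSF15, a ligand of death receptor 3, by 0.89 and IL1A, an alarmin, by 0.75 (adjusted p = 4.2e-06, 3.1e-06 and 4e-06). Of 17 NF-kB subunits and feedback genes, 4 were higher and 1 was lower (median 0.05), and the lower one was NFKBIB, which holds NF-kB in the cytoplasm (-0.28), which passed only with all arrays or without CSE 1% replicate 1. The higher ones were SOD2, mitochondrial superoxide dismutase (0.76), NFKBIZ, a nuclear regulator of NF-kB (0.59), IRAK2, a kinase of interleukin 1 signalling (0.58), and TNFAIP3, a feedback inhibitor (0.43).

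Of 31 interferon-stimulated genes, 10 were higher and 2 were lower (median 0.01), against 7.52% and 8.54% of all genes. Without CSE 1% replicate 3 only 6 were higher. RIGI, a sensor of viral RNA, had 9.45, 9.29 and 9.33 with CSE 10% and 8.60, 8.27 and 8.19 with CSE 1%, higher by 1.00 (adjusted p = 6.8e-05). IFIT1, IFIT2, IFIT3 and IFIT5, which bind foreign RNA, were higher by 0.48 to 0.64. OAS3 and OAS1, synthases that activate RNase L, were lower by 0.92 and 0.64 on the log2 scale (adjusted p = 1e-06 and 5.1e-06), and the value of ISG15 was -0.04. Arachidonic acid enzymes were split as well. ALOX5, which makes leukotrienes, had 9.13, 9.09 and 9.19 with CSE 10% and 7.95, 8.08 and 8.15 with CSE 1%, a difference of 1.08 (adjusted p = 2.4e-09). PTGS2, the inducible cyclooxygenase, had 8.42, 8.53 and 8.79 with CSE 10% and 10.64, 10.49 and 10.27 with CSE 1%, 3.70-fold lower (log2 -1.89, standard error 0.13, adjusted p = 4.5e-11). PTGER2, a prostaglandin E2 receptor, was lower by 1.05 on the log2 scale, and of the 20 prostaglandin genes only these 3 passed (median -0.06), with 1 more higher without CSE 1% replicate 1.

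Genes of heme and iron and NRF2 targets belong to the defences against oxidants. Of 14 heme and iron genes, 5 were higher and 1 was lower (median 0.15), or 2 lower without CSE 10% replicate 1. CP, the ferroxidase ceruloplasmin, was higher by 1.19, SLC40A1, the iron exporter ferroportin, by 1.02, HMOX1, which breaks down heme, by 0.81 and FECH, which completes heme synthesis, by 0.52 (adjusted p = 0.0035, 1.4e-05, 0.0019 and 8e-06). The HMOX1 arrays did not overlap. It was below control with CSE 1% (-0.68) and close to control with CSE 10% (0.13). FLVCR1, a membrane transporter linked to heme and choline, was lower by 0.78 on the log2 scale (adjusted p = 9.5e-08). Of 29 NRF2 antioxidant genes, 4 were higher and 4 were lower (median 0.07), and without CSE 1% replicate 3 only 1 was higher. GCLM, a subunit of the enzyme that starts glutathione synthesis, was higher by 0.93 (adjusted p = 0.00039), and SRXN1, which restores peroxiredoxins, was lower by 0.33 on the log2 scale (adjusted p = 0.002). None of 13 metallothioneins and zinc genes passed in limma (median 0.06). Of 20 inducible chaperones, 0 were higher and 8 were lower (median -0.11), or 5 lower without CSE 10% replicate 3 and 1 higher without CSE 1% replicate 1. CRYAB, a small heat shock protein, was the largest of them with 6.11, 6.17 and 6.64 with CSE 10%, against 7.64, 7.68 and 7.97 with CSE 1% (log2 -1.46, adjusted p = 3.3e-09).

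Several further genes with large positive differences have no common list. PLA2R1, a phospholipase receptor, had 9.37, 9.35 and 9.47 with CSE 10%, against 8.12, 7.83 and 7.43 with CSE 1%, higher by 1.61 (standard error 0.17, adjusted p = 1.2e-07). NAV3, a microtubule-binding protein, had 7.69, 7.63 and 7.67 with CSE 10% and 6.25, 6.16 and 6.08 with CSE 1%, higher by 1.50 (adjusted p = 1.1e-10). TM4SF18, a tetraspan membrane protein, was higher by 1.44 and SAMD12 by 1.39. PWAR6 and SNORD116-28, noncoding transcripts of the Prader-Willi region on the same chromosome stretch, were higher by 1.70 and 1.39 (adjusted p = 9.7e-05 and 1.2e-07). ANKRD20A8P, a pseudogene of a repeated family whose probes may read other copies, was higher by 1.48, LOC399975 by 1.46 and KIAA1107 by 1.42. The CSE 1% means of PWAR6, SNORD116-28 and LOC399975 lay below the first quartile of gene levels (5.90). For SNORD116-28 the CSE 10% mean did as well. The values carry no detection call, so the size of the differences in PWAR6, SNORD116-28 and LOC399975 is uncertain. Chosen after their values were seen, ABCA1, a cholesterol exporter, was higher by 1.31, ROR1, a Wnt5a receptor, by 1.29, BCL6, a transcriptional repressor, by 1.22, and DAPK1, a death-associated kinase, by 1.12 (adjusted p = 7e-10, 1.5e-10, 4.1e-08 and 1.1e-10).

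The 2 microRNA loci among the called genes were both higher. MIR181B1 had 8.41, 8.41 and 8.57 with CSE 10%, against 7.55, 7.02 and 6.22 with CSE 1%, a log2 difference of 1.53 (standard error 0.28, adjusted p = 0.00036). MIR30C2 had 8.39, 8.45 and 8.54 with CSE 10% and 7.68, 7.03 and 6.46 with CSE 1%, a difference of 1.40 (adjusted p = 0.004), which fell to 1.10 and no longer passed without CSE 1% replicate 3 (adjusted p = 0.056). These transcript clusters read the locus in long RNA, and the mature microRNAs were not measured. The mature 5p sequences of both loci are shown because they name what the loci encode (RefSeq, GRCh38.p14, chr1:198858925-198858947 and chr6:71377003-71377025, both on the minus strand). The capitals mark the seed, bases 2 to 8, which the microRNAs do not share.
hsa-miR-181b-5p: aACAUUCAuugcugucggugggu
hsa-miR-30c-5p: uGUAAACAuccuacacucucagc

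The CSE 1% arrays differed among themselves in the genes that were higher with CSE 10%. In 47 of the 63 genes CSE 1% replicate 1 had the highest of the 3 CSE 1% values, and in 46 of them CSE 1% replicate 3 had the lowest. The median level over the 63 genes was 8.39, 8.41 and 8.54 on the CSE 10% arrays of replicates 1, 2 and 3, and 7.55, 7.11 and 6.93 on the CSE 1% arrays. The median SD between arrays was 0.08 with CSE 10% and 0.30 with CSE 1% in these genes, against 0.08 and 0.13 over all genes. In the 97 lower genes CSE 1% replicate 3 was the highest in 66 and replicate 1 the lowest in 59, with a median SD of 0.09 with CSE 10% and 0.15 with CSE 1%. The count of higher genes followed these arrays: it was 160 without CSE 1% replicate 1, with 62 of the 63 genes among them, and 37 without CSE 1% replicate 3, with 35 of the 63. The count of lower genes stayed between 82 and 117 when any one array was left out. The higher genes were also longer, with a median of 43.3 kb against 24.5 kb for all genes (19.5 kb for the lower genes), and 16.1% of them were noncoding, against 8.1% of all genes and 0% of the lower genes. The part of this spread in the higher genes was not tested.

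Immediate early genes, which cells switch on within minutes of a growth or stress signal and many of which encode transcription factors, were lower with CSE 10%. Of 21 members, 0 were higher, 17 were lower and 4 did not pass, with a median of -0.65. NR4A1 (7955589), an orphan nuclear receptor, had 7.49, 7.49 and 7.50 with CSE 10%, against 9.78, 9.95 and 9.92 with CSE 1%, 5.23-fold lower (log2 -2.39, standard error 0.11, adjusted p = 2.5e-15). NR4A2 had 8.62, 8.53 and 8.53 with CSE 10% and 10.27, 10.28 and 10.20 with CSE 1%, and NR4A3 had 5.90, 5.70 and 5.92 with CSE 10% and 7.59, 7.25 and 7.21 with CSE 1%. All 3 members of the NR4A family were thus lower without overlap, NR4A2 by 1.69 and NR4A3 by 1.51 on the log2 scale (adjusted p = 1.1e-11 and 1.5e-10). EGR1, a zinc finger factor induced by ERK, had 7.73, 7.47 and 7.57 with CSE 10% and 9.31, 9.16 and 9.22 with CSE 1%, lower by 1.64 on the log2 scale (adjusted p = 6e-08). KLF6 was lower by 1.41, JUN, a subunit of AP-1, by 1.39, DUSP1, a phosphatase of MAP kinases, by 1.26 and FOS, the partner of JUN, by 0.68 (adjusted p = 2.1e-13, 2.6e-10, 5e-07 and 0.00025). MYC, a growth regulator, and IER3, an inhibitor of apoptosis, did not pass, with -0.20 and -0.08. The promoter of EGR1 is shown because it holds serum response elements (CArG boxes), which are in capitals (GRCh38.p14, chr5:138465229-138465528, plus strand) and start at positions -105 and -83. All promoters were read from 250 bases before to 50 after the start, so elements farther out were not seen. In that window EGR1 alone of the 14 list promoters in the table holds this motif, against 1.29% of all promoters. The cAMP response element half-site TGACG stands in 10 of the 14, on either strand, against 25% of all.
EGR1: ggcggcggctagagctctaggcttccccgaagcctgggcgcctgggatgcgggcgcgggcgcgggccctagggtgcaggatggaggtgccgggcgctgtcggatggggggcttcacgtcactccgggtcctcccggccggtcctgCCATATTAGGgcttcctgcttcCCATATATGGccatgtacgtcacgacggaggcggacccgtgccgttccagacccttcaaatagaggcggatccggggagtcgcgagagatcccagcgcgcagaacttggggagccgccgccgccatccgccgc

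KLF4, a factor of epithelial differentiation, had 7.23, 7.13 and 7.14 with CSE 10%, against 9.23, 9.29 and 9.36 with CSE 1%, 4.37-fold lower (log2 -2.13, standard error 0.088, adjusted p = 5.5e-16). HBEGF, a ligand of the EGF receptor, had 6.99, 7.08 and 6.98 with CSE 10% and 8.68, 8.62 and 8.52 with CSE 1%, lower by 1.59 on the log2 scale (adjusted p = 1.4e-10). Neither gene overlapped between the doses. Of the 22 ERK feedback genes and EGF ligands, 5 were higher and 5 were lower (median -0.13), and without one or another array 2 or 3 were higher or 3 lower, while 8 were lower without CSE 1% replicate 1. ATF3, a stress-induced repressor, and TRIB3, a pseudokinase downstream of ATF4, were lower by 1.34 and 1.12 on the log2 scale (adjusted p = 6.9e-09 and 2e-07). Of 30 genes of ATF4 and the unfolded protein response, 3 were higher and 6 were lower (median -0.05), with 5 higher without CSE 1% replicate 1. DNAJB9, an endoplasmic reticulum chaperone, and STC2, a secreted glycoprotein, were higher by 0.73 and 0.84 (adjusted p = 0.00027 and 0.00043).

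Genes of DNA replication and of mitosis were lower with CSE 10%. Of 33 genes of DNA replication and the G1/S transition, 0 were higher and 30 were lower, with a median of -0.58. CDC45, part of the replicative helicase, had 7.21, 7.23 and 7.13 with CSE 10% and 8.03, 8.37 and 8.45 with CSE 1%, lower by 1.09 on the log2 scale (adjusted p = 7.8e-08). RRM2, which supplies deoxynucleotides, was lower by 1.06, UHRF1, which maintains DNA methylation, by 1.01, and MCM6 and MCM7 of the helicase ring by 0.92 and 0.89 (adjusted p = 5.1e-07, 1.4e-08, 2.1e-07 and 2e-08). Of 32 genes of mitosis and G2/M, 0 were higher and 20 were lower, with a median of -0.71. PLK1, a mitotic kinase, had 9.17, 9.14 and 9.34 with CSE 10% and 10.38, 10.57 and 10.77 with CSE 1%, 2.56-fold lower (log2 -1.36, standard error 0.14, adjusted p = 7.7e-08). MKI67, the proliferation marker Ki-67, had 9.03, 8.95 and 8.97 with CSE 10% and 10.12, 10.17 and 10.22 with CSE 1%, lower by 1.18 on the log2 scale (adjusted p = 7.7e-08). FOXM1, a factor that drives mitotic genes, was lower by 1.22 and PRC1, which bundles spindle microtubules, by 1.16 (adjusted p = 2.6e-08 and 5.5e-11).

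In the 12 mitotic genes that did not pass, the CSE 1% arrays spread more. Their median SD was 0.04 with CSE 10% and 0.47 with CSE 1%, against 0.07 and 0.15 in the 20 that passed, and CSE 1% replicate 3 was the lowest CSE 1% array in all 12, against 6 of the 20. The part of that spread in the list's count was not tested. ASPM, a spindle pole protein, had 8.20, 8.18 and 8.41 with CSE 10%, against 9.04, 8.53 and 7.32 with CSE 1%, and TOP2A, topoisomerase II, had 9.89, 9.93 and 9.93 with CSE 10% and 10.64, 10.23 and 9.91 with CSE 1%. The log2 differences were -0.03 and -0.35 (adjusted p = 0.98 and 0.29). Replication-dependent histone genes, a set drawn up by symbol after the values were seen, were lower as well: of 57 measured, 0 were higher and 31 were lower, with a median of -0.59. H2BC14 had 9.64, 9.71 and 9.70 with CSE 10% and 10.79, 11.70 and 12.13 with CSE 1% (log2 -1.86, adjusted p = 0.0007), and H3C2 had 8.83, 8.98 and 9.15 with CSE 10% and 9.91, 10.44 and 10.93 with CSE 1% (log2 -1.44, adjusted p = 1.2e-05). Histone genes are near-copies of one another, so single members are uncertain. Against control, the median of the histone genes was -0.64 with CSE 1%, -0.78 with CSE 5% and -1.26 with CSE 10%.

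The promoters of 3 mitotic genes are shown because members of that list share a motif that the list's choice did not use. The capitals mark the CHR, TTTGAA or its reverse complement, the element through which the DREAM and MuvB complexes act on mitotic genes. It occurs in 18 of the 27 list promoters in the table and in 15.4% of all 27305, and the CCAAT box occurs in 22 of the 27 and in 35.7% of all, both read on either strand. The sequences are from GRCh38.p14: PLK1 at chr16:23678639-23678938 on the plus strand with the CHR from position -29, PRC1 at chr15:90994486-90994785 on the minus strand with it from -20, and CDC20 at chr1:43358731-43359030 on the plus strand with it from -178 and -65. CDC20, which activates the anaphase-promoting complex, was named after its values were seen and was lower by 1.25 on the log2 scale (adjusted p = 2.2e-06). A match describes the letters only, and no binding was measured.
PLK1: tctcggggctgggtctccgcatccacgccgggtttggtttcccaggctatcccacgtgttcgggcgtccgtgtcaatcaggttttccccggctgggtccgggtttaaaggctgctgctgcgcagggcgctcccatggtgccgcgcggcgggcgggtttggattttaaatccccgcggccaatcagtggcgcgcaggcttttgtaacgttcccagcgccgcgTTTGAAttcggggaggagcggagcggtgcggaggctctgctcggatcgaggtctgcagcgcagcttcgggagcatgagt
PRC1: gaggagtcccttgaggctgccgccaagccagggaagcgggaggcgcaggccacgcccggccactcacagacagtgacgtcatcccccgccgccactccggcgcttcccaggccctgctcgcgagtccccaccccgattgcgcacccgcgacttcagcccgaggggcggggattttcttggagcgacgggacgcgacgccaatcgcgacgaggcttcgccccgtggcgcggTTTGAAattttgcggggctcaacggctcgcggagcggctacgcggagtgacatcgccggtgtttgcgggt
CDC20: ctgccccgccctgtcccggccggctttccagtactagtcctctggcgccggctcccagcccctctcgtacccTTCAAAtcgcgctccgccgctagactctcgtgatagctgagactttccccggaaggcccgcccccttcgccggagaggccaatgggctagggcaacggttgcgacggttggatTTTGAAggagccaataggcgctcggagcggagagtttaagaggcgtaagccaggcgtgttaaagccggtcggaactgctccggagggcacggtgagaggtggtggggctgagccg

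**Figure D2:**
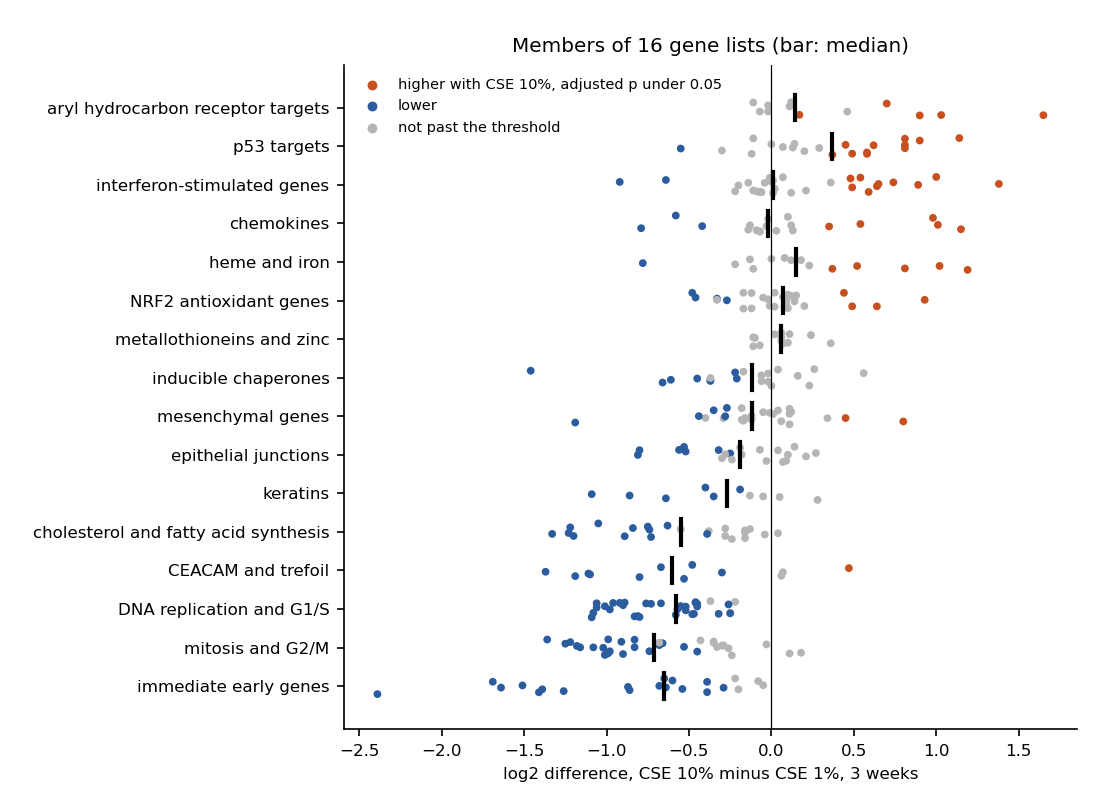
Log2 difference between CSE 10% and CSE 1% at 3 weeks for each measured member of 16 gene lists, with the list median as a black bar. Orange points are higher and blue points lower at an adjusted p under 0.05. The medians run from 0.37 for p53 targets to -0.71 for mitosis and G2/M.

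Enzymes of cholesterol and fatty acid synthesis were lower, 12 of 23 with 0 higher and a median of -0.55. HMGCS1, which commits acetyl units to the mevalonate pathway, had 10.36, 10.32 and 10.46 with CSE 10%, against 11.94, 11.71 and 11.48 with CSE 1%, lower by 1.33 on the log2 scale (standard error 0.13, adjusted p = 2.2e-08). FDPS, farnesyl diphosphate synthase, had 8.53, 8.49 and 8.59 with CSE 10% and 9.75, 9.71 and 9.83 with CSE 1%, lower by 1.23 (adjusted p = 4.5e-10). INSIG1, which retains the SREBP precursors in the endoplasmic reticulum and is itself an SREBP target, had 9.46, 9.36 and 9.31 with CSE 10% and 10.59, 10.57 and 10.57 with CSE 1%, lower by 1.20 (adjusted p = 5.7e-12). The arrays of the doses did not overlap in these genes. MVD and MVK, further steps of the mevalonate pathway, were lower by 1.05 and 0.89 (adjusted p = 1.5e-08 and 3.1e-07). SREBF1 and SREBF2, which encode the SREBP factors, had -0.24 and -0.28 and did not pass, nor did SCD, which desaturates fatty acids (-0.16). SLC2A3, a glucose transporter, was lower by 1.39 on the log2 scale (adjusted p = 1e-11), and PFKFB3, which drives glycolysis, was higher by 0.72 (adjusted p = 2.8e-05). Of 27 genes of glycolysis and the hypoxia response, 4 were higher and 7 were lower (median -0.01), with 2 higher without CSE 10% replicate 3.

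The largest difference downward was that of KRT10, a keratin of differentiated skin epithelium. KRT10 (8015104) had 8.69, 8.76 and 8.92 with CSE 10%, against 11.71, 11.72 and 11.74 with CSE 1%, 7.63-fold lower (log2 -2.93, standard error 0.092, adjusted p = 5.8e-19). The level with CSE 10% was below that of control by a little (-0.29, adjusted p = 0.017), and the level with CSE 1% was 2.64 above control. Of 10 other keratins, 0 were higher and 6 were lower (median -0.27), or 3 without CSE 1% replicate 3. KRT19 of simple epithelia was lower by 1.09 on the log2 scale (adjusted p = 9.6e-06). Mucins and CEACAM adhesion proteins of the cell surface were lower too. Of 12 genes of that list, 9 were lower and 1, AGR2, which folds mucins, was higher by 0.47, with a median of -0.60. CEACAM5, the carcinoembryonic antigen, had 11.92, 11.94 and 11.96 with CSE 10% and 13.10, 13.15 and 13.14 with CSE 1%, lower by 1.19 (adjusted p = 3.5e-12). MUC16 and MUC13, membrane mucins, were lower by 1.37 and 1.10 (adjusted p = 1.2e-09 and 1.5e-10).

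Epithelial junction genes were lower in 7 of 21 and higher in 0 (median -0.19). DSP, desmoplakin of desmosomes, had 10.17, 10.15 and 10.13 with CSE 10% and 10.93, 10.98 and 10.97 with CSE 1%, lower by 0.81 on the log2 scale (adjusted p = 4.7e-06), and EPCAM, an epithelial adhesion molecule, was lower by 0.80 (adjusted p = 0.00029). CDH1, E-cadherin, had 11.11, 11.04 and 10.97 with CSE 10% and 11.26, 11.32 and 11.31 with CSE 1%. That difference of -0.25 passed (adjusted p = 0.038), but not without any one of 4 arrays (adjusted p up to 0.16 without CSE 10% replicate 3). Marker lists were read on the 6 arrays as well. The mean log2 level of 8 epithelial markers was 9.92 to 9.94 with CSE 10% and 10.28 to 10.41 with CSE 1%. That of 8 fibroblast markers was 5.67 to 5.81 with CSE 10% and 5.64 to 5.83 with CSE 1%, and that of 7 endothelial markers 5.51 to 5.72 with CSE 10% and 5.61 to 5.68 with CSE 1%. Levels of different probe sets are not comparable, so the lists are not set against each other. Of the 8 epithelial markers 6 were lower, or 3 without CSE 1% replicate 2 or 3 (median -0.33). None of the fibroblast and endothelial markers passed in limma (medians 0.04 and -0.02), or 1 fibroblast marker as lower without CSE 1% replicate 1, and 1 of 7 leukocyte markers was higher and 1 lower (median 0.02).

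Mesenchymal genes did not move in one direction. FN1, fibronectin, had 10.30, 10.21 and 10.26 with CSE 10%, against 11.31, 11.46 and 11.59 with CSE 1%, 2.29-fold lower (log2 -1.19, standard error 0.10, adjusted p = 2.7e-09). Both doses stood above control, CSE 1% by 2.10 and CSE 10% by 0.91. ACTA2, smooth muscle actin, was higher by 0.80 and TPM2, tropomyosin, by 0.45 (adjusted p = 4e-06 and 0.0014). CDH2, N-cadherin, was lower by 0.35 (adjusted p = 0.019). It did not pass without CSE 1% replicate 3 (-0.24, adjusted p = 0.20) or without CSE 10% replicate 1 or 2 (adjusted p = 0.076 and 0.08). The values of VIM, vimentin, and COL1A1, collagen I, were -0.18 each (adjusted p = 0.14 for VIM). In all, 2 of 26 mesenchymal genes were higher and 5 were lower (median -0.12), against 7.52% and 8.54% of all genes. Only 1 was lower without CSE 1% replicate 3 or CSE 10% replicate 2. COL12A1, a fibril-associated collagen, was lower by 1.38 and NID2, a basement membrane linker, by 0.86 (adjusted p = 3.1e-09 and 1.2e-05), and of 24 collagen and basement membrane genes 2 were higher and 4 were lower (median -0.05), with 0 higher without replicate 3 of either dose. Of 18 EMT transcription factors and epithelial regulators, 2 were higher and 3 were lower (median -0.07), with 1 lower without replicate 2 of either dose. ZEB1, a repressor of E-cadherin, was higher by 0.77 (adjusted p = 0.0064), but by 0.54 without CSE 1% replicate 3 (adjusted p = 0.098).

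Of the 14 genes that the study names from the arrays, 5 were higher, 4 were lower and 5 did not pass (median 0.07), and 1 was lower without CSE 1% replicate 3. The study chose them on these arrays, so the count is no independent evidence of a direction. MMP7, a matrix protease, had 11.59, 11.72 and 11.69 with CSE 10%, against 11.03, 10.84 and 10.85 with CSE 1%, higher by 0.76 (adjusted p = 0.0053). TGFB2, a ligand of the TGF-β family, had 8.52, 8.43 and 8.47 with CSE 10% and 7.87, 7.55 and 7.63 with CSE 1%, higher by 0.79 (adjusted p = 7.7e-06). Neither gene overlapped between the doses. For TGFB1 the groups overlapped, with 9.02, 9.06 and 9.16 with CSE 10% and 8.89, 9.17 and 9.41 with CSE 1% (log2 -0.07, adjusted p = 0.84), while CSE 1% and CSE 10% lay 1.70 and 1.62 above control. ITGAV, integrin αV, had 10.83, 10.77 and 10.81 with CSE 10% and 10.74, 10.46 and 9.89 with CSE 1% (log2 0.44, adjusted p = 0.21). ITGB6, its β6 partner in the activation of latent TGF-β, was higher by 0.51 (adjusted p = 0.025). It did not pass without replicate 2 or 3 of either dose. The adjusted p was then 0.066 to 0.22, with a difference of 0.36 at the highest, without CSE 1% replicate 3. MMP2, a gelatinase, was lower by 0.52 on the log2 scale (adjusted p = 0.0045), but by 0.39 without CSE 1% replicate 3 (adjusted p = 0.068). MMP9, the other gelatinase, and CDH6, a cadherin, had -0.19 and 0.21 (adjusted p = 0.21 and 0.31).

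BMP6, a bone morphogenetic protein, had 7.24, 7.45 and 7.41 with CSE 10%, against 8.95, 9.04 and 9.07 with CSE 1%, 3.14-fold lower (log2 -1.65, standard error 0.13, adjusted p = 1.9e-10). ID1, ID2 and ID3, direct targets of BMP signalling that block helix-loop-helix factors, were lower by 0.76, 0.82 and 0.92, and BAMBI, a decoy receptor, by 0.66 (adjusted p = 1.4e-05, 2.8e-07, 1.2e-05 and 3.1e-06). Of 41 genes of BMP, activin and Wnt signalling, 3 were higher and 10 were lower (median 0.01), against 7.52% and 8.54% of all genes. Only 1 was higher without CSE 1% replicate 2 or 3, or without CSE 10% replicate 1 or 3. Other genes with large negative differences were HSD17B13, an enzyme of lipid droplets (-1.71), FSTL4, a follistatin-like protein (-1.68), NTS, the peptide neurotensin (-1.63), CES1, a carboxylesterase (-1.59), and OR51E2 and OR51E1, neighbouring olfactory receptors (-1.54 each). Their adjusted p-values were 3.2e-09, 3.5e-12, 0.0013, 1.4e-10, 5.3e-09 and 2.8e-06. NTS had 5.65, 5.85 and 5.99 with CSE 10%, against 8.07, 7.44 and 6.86 with CSE 1%, where the arrays spread.

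In the remaining lists between 11.1% (alveolar identity) and 36.8% (housekeeping genes) of the members passed, counting both directions. Of all genes 7.52% were higher and 8.54% lower. The shares of alveolar identity, proteasome subunits (13.3%) and complement genes (16%) did not exceed the sum of these 2 shares. Those of oxidative phosphorylation (17.9%), integrins (18.8%), proteases (20.7%) and housekeeping genes did. Of 29 proteases and inhibitors, 3 were higher and 3 were lower (median -0.00), or 5 each without CSE 1% replicate 1, with TFPI, an inhibitor of clotting, higher by 1.04 and PLAUR, the urokinase receptor, lower by 0.70 on the log2 scale (adjusted p = 0.002 and 8.3e-08). Of 16 integrins, 2 were higher and 1 was lower (median -0.06), or 0 of either without CSE 1% replicate 3. Of 18 genes of alveolar identity and surfactant, 1, CAV1 of caveolae, was higher and 1, the mucin MUC1, was lower (median 0.04). CAV1 did not pass without any one of 4 arrays (adjusted p 0.068 without CSE 1% replicate 2 to 0.11 without CSE 10% replicate 2), and 2 genes were lower without replicate 1 of either dose. Of 25 genes of complement, fibrinogen and the acute phase, 1 was higher and 3 were lower (median 0.03), or 1 lower without CSE 1% replicate 3, with CD55, which protects cells from complement, lower by 0.89 (adjusted p = 1.5e-07). Of 28 genes of oxidative phosphorylation 5 were lower (median -0.06), of 30 proteasome subunits 4 (median -0.09), and of 19 housekeeping genes 1 was higher and 6 were lower (median -0.05). These last counts fell to 1, 2 and 2 lower genes without CSE 1% replicate 3, and 7 proteasome subunits were lower without CSE 1% replicate 1.

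**Figure D3:**
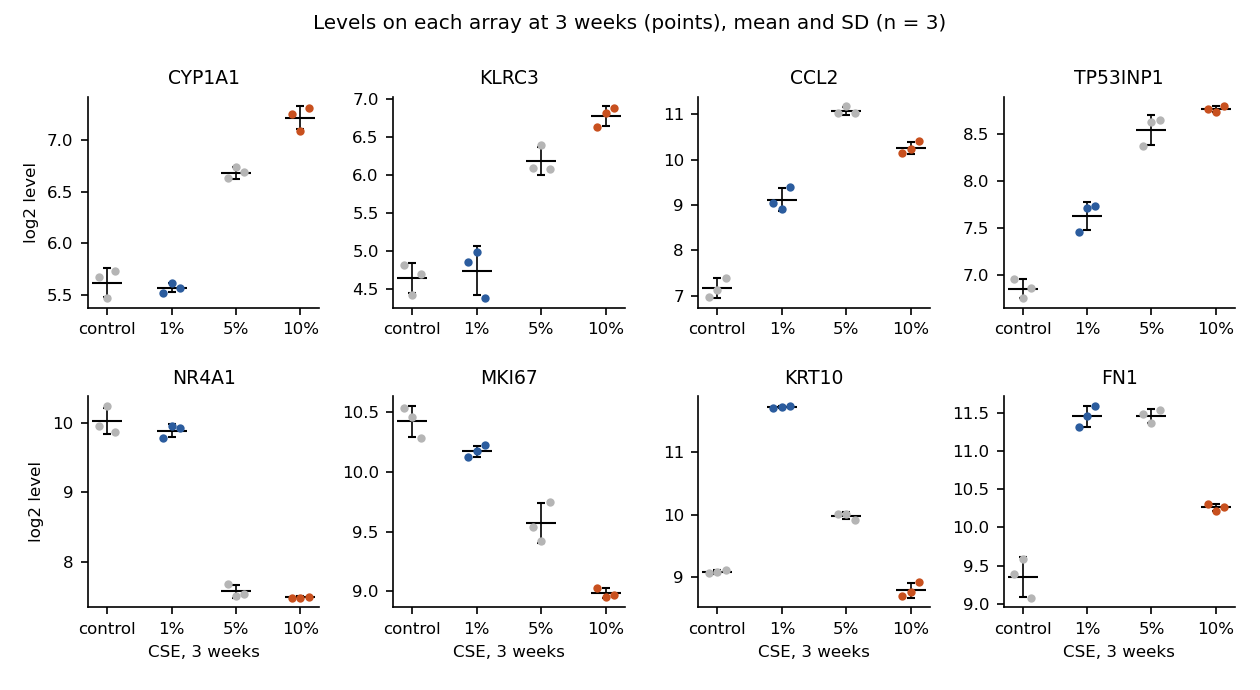
Log2 level of 8 genes on each of the 12 arrays of 3 weeks (points) by CSE dose, with the mean and SD of 3 arrays per dose. NR4A1 stands near control with CSE 1% (-0.14) and 2.53 below it with CSE 10%, while KRT10 stands 2.64 above control with CSE 1% and 0.29 below it with CSE 10%.

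Set beside control cells of 3 weeks, the genes that differed between the doses fell into several patterns, which are given as levels because all 3 doses share the control arrays. For NR4A1 the log2 differences from control were -0.14, -2.44 and -2.53 with CSE 1%, 5% and 10%, and for NR4A2 they were -0.21, -1.92 and -1.90, so that CSE 5% was at the level of CSE 10%. For MKI67 they were -0.25, -0.85 and -1.43 and for PLK1 -0.66, -1.27 and -2.02 (CSE 1% did not pass for MKI67, adjusted p = 0.23), lowest with CSE 10% in both. KRT10, CES1 and COL12A1 were highest with CSE 1%: the differences were 2.64, 0.89 and -0.29 for KRT10, 1.95, 1.13 and 0.35 for CES1 and 1.53, 0.95 and 0.15 for COL12A1. FN1 was alike with CSE 1% and 5% (2.10 and 2.11) and lower with CSE 10% (0.91). FSTL4, OR51E2 and OR51E1 were below control at every dose, with -1.49, -2.84 and -3.17 for FSTL4. PLA2R1 was above control at every dose (1.30, 2.52 and 2.90). CSE 5% against CSE 1% gave 37 higher and 22 lower genes by the same thresholds.

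The difference between the doses was not the same after 1 week. Tested as an interaction in the same model, it was higher at 3 weeks than at 1 week in 116 genes (0.63% of 18417) and lower in 64 (0.348%). The doses themselves differed in 77 higher and 290 lower genes at 1 week (0.418% and 1.57%). HSPA6, an inducible heat shock protein, differed by 4.83 at 1 week and by 0.04 at 3 weeks, a change of -4.79 (standard error 0.21, adjusted p = 8.4e-15). DNAJB1, its co-chaperone, differed by 1.58 at 1 week and -0.37 at 3 weeks (change -1.95, adjusted p = 1.4e-12), and SERPINH1, the collagen chaperone, by 1.19 and -0.43 (change -1.62, adjusted p = 2.7e-08). In the list of inducible chaperones 7 genes were higher with CSE 10% at 1 week (6.14% of all genes were) and 0 at 3 weeks, and the change passed as lower in 8 of 20 (2.59% of all genes). Immediate early genes had a median of -0.09 at 1 week, when 8 of 21 were lower (10.4% of all genes were), and -0.65 at 3 weeks, with the change lower in 11 of 21. HBEGF differed by 0.44 at 1 week and -1.59 at 3 weeks, KLF4 by -0.60 and -2.13, ANKRD1, a stretch-induced cofactor, by 2.16 and -0.41, KRT10 by -1.58 and -2.93, and PLEK2, an actin regulator, by 0.78 and -0.47.

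Cell cycle genes went the other way, with differences nearer to 0 at 3 weeks. Mitotic genes had a median of -1.47 at 1 week and -0.71 at 3 weeks, and the change was higher in 13 of 32 (3.51% of all genes). DNA replication genes had -0.96 and -0.58, with 9 of 33 higher, and cholesterol and fatty acid genes -1.05 and -0.55, with 7 of 23 higher. TNFSF10 was lower with CSE 10% at 1 week (-1.69) and higher at 3 weeks (1.32), a change of 3.01 (adjusted p = 2.5e-09). CST1 and CST2, salivary cystatins that are close copies, differed by -3.42 and -2.51 at 1 week and by -0.78 and -0.48 at 3 weeks (changes of 2.64 and 2.04). SCD differed by -1.95 and -0.16 (change 1.79), EGLN3, an oxygen-sensing hydroxylase, by -1.62 and 0.18 (1.80), OAS1 by -2.12 and -0.64 (1.49), UPK1B, a uroplakin, by -2.19 and -0.60 (1.60) and DOCK8, a guanine nucleotide exchange factor, by -0.90 and 0.85 (1.75).

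After 5 weeks the difference between the doses was closer to that at 3 weeks. It was higher at 3 weeks than at 5 weeks in 11 genes (0.0597%) and lower in 20 genes (0.109%), and the doses differed in 74 higher and 119 lower genes at 5 weeks (0.402% and 0.646%). Immediate early genes had a median of -0.31 at 5 weeks, when 10 of 21 were lower (7.05% of all genes were), and the change was lower in 5 of 21 (0.386% of all genes). NR4A2 differed by -1.69 at 3 weeks and -0.19 at 5 weeks (change -1.50, adjusted p = 1.5e-06), NR4A1 by -2.39 and -1.10 (-1.29, adjusted p = 9.5e-06) and KLF4 by -2.13 and -0.75 (-1.38, adjusted p = 1.8e-07). DHRS9, a retinol dehydrogenase, changed direction, with -1.16 at 3 weeks and 0.88 at 5 weeks (-2.03, adjusted p = 4.4e-06). NAV3 differed by 1.50 and 2.75, TRIML2 by 0.97 and 2.79, and TSPAN5, a tetraspanin, by -0.12 and 1.21. In the other direction, FXYD3, a regulator of the sodium pump, differed by -0.68 at 3 weeks and -2.81 at 5 weeks (change 2.13, adjusted p = 9.3e-08) and CEACAM5 by -1.19 and -2.19 (1.00, adjusted p = 1.3e-06). Mitotic genes had a median of -0.67 at 5 weeks and p53 targets 0.55, with 17 of 21 higher at 5 weeks (5.3% of all genes were), and the change from 5 weeks passed in 0 of 32 and 1 of 21.

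**Figure D4:**
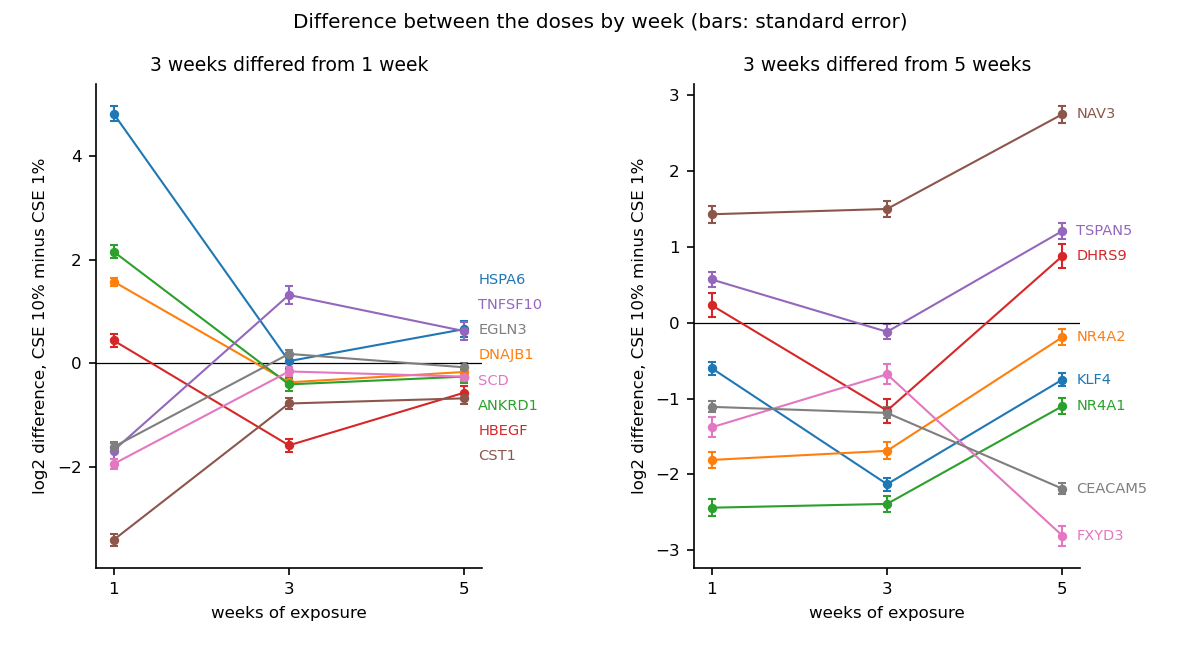
Log2 difference between CSE 10% and CSE 1% at 1, 3 and 5 weeks for genes named by the interaction tests, with standard errors as bars; left, genes that changed between 1 and 3 weeks, right, between 3 and 5 weeks. HSPA6 lies at 4.83 at 1 week and 0.04 at 3 weeks, and NR4A2 at -1.69 at 3 weeks and -0.19 at 5 weeks.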

How the data were processed

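RNA of A549 cells had been hybridised to Human Gene 1.0 ST arrays, 3 arrays for each of 12 groups. The authors ran RMA from the oligo package, which takes off background, equalises the arrays and summarises probes, and deposited values on the log2 scale, from 2.29 to 14.5. The submitters' processing notes list R at version 2.11.0 beside RMA and limma. No genome build is given in the sources used here. Quantile normalization within RMA would hide a shift shared by most genes. Array medians were 6.72 to 6.91, with CSE 10% replicate 3 of 3 weeks at the top and the other 35 arrays at 6.84 or below. The correlation between arrays was 0.9944 to 0.9963 within CSE 10%, 0.9880 to 0.9931 within CSE 1% and 0.9813 to 0.9921 between them. For the 5-week controls, which enter the fit through the shared spread alone, titles and descriptions disagree on the week, and the titles were used.

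Of 33297 transcript clusters, 19460 had 1 symbol in the platform annotation, 1754 several and 12083 none. A gene with several clusters (769 of 18417) was represented by its brightest cluster, by the mean of all arrays. limma 3.58.1 in R 4.3.3 fitted a mean per group to all 36 arrays (24 residual and 3.91 prior degrees of freedom), and p-values were adjusted over all clusters. The 37 gene lists were described by counts and medians, without a test of the list. The text names up to 15 called genes per direction with the largest difference and no overlap, up to 5 members per list with the smallest p, up to 8 genes per direction for each interaction, and the genes the study names. Others are said to be chosen after their values were seen, or are list members given with their value. The members, lists, rules and alternatives were chosen with earlier results of these data known. Alternatives changed the threshold, the arrays in the fit, the normalization, the filter, the variance model and array weights, added a replicate block and left out each array.

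The fit was tested on simulated data for this comparison with 33297 clusters. Among 50 with a true log2 change of 0.585 the thresholds called 0%, while 76% reached the adjusted p. The share called was 96% for a change of 1.5, 100% for 2.5 and 0.00604% for clusters without change. The simulation drew independent noise with the same spread in every group of a cluster. In the called higher genes the CSE 1% arrays spread more, with a median SD of 0.30 against 0.08 with CSE 10%. The simulated shares therefore do not carry over to such genes. The number of arrays limits the precision. Promoter and microRNA sequences came from RefSeq tables of GRCh38.p14. Real-time PCR, protein and migration data of the study were not used here.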

Additional observations from a re-analysis of the deposited data

Results flagged for a closer look

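Differences between the doses that were unlike at 3 weeks and at another time, by limma's interaction test, were singled out. They number 116 higher and 64 lower genes against 1 week, and 11 higher and 20 lower genes against 5 weeks. Against 1 week the changes of the named genes were 2.64 for CST1, 1.80 for EGLN3, 1.79 for SCD, 1.49 for OAS1, 1.75 for DOCK8, 1.60 for UPK1B, 3.01 for TNFSF10 and 2.04 for CST2. They were -4.79 for HSPA6, -1.95 for DNAJB1, -2.57 for ANKRD1, -1.52 for KLF4, -2.03 for HBEGF, -1.62 for SERPINH1, -1.35 for KRT10 and -1.25 for PLEK2. Against 5 weeks they were 2.13 for FXYD3, 1.00 for CEACAM5, 1.19 for PRR15L, 1.51 for NRG4, 0.83 for CPS1, 0.66 for MYO1D, 0.88 for S100A14 and 0.93 for DOCK8. They were -1.38 for KLF4, -1.50 for NR4A2, -1.34 for TSPAN5, -1.13 for PLEK2, -2.03 for DHRS9, -1.82 for TRIML2, -1.29 for NR4A1 and -1.25 for NAV3. Adjusted p-values of these single genes lay below 0.05.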

How the results depend on the processing

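Leaving out 1 array at a time gave 37 to 160 higher and 82 to 117 lower genes between the doses at 3 weeks, with the extremes of the higher genes set by CSE 1% replicates 3 and 1. For the change from 1 week the counts were 106 to 145 higher and 58 to 73 lower. For the change from 5 weeks they were 6 to 14 higher and 13 to 20 lower, with 7 higher without CSE 1% replicate 2 of 5 weeks, 6 without its replicate 3 and, without CSE 10% replicate 2 of 5 weeks, 6 higher and 13 lower. With B above 3 that count of 11 higher genes was 6, and with arrays centred on the changes of housekeeping genes it was 7. All other settings kept the 6 counts within 1.5 times. Higher genes made up 39.4% of the calls, 46.7% with array weights (0.178 to 2.92, estimated gene by gene), and 31.1% to 57.8% with an array left out. The cause of these shifts was not tested.

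The replicate numbers did not pair the arrays, since the correlations of same-numbered deviations were -0.01, -0.17 and -0.03. A replicate block left 63 higher and 97 lower genes as a fixed and as a random block (consensus correlation -0.007). The counts against 1 and 5 weeks moved by at most 1 gene. Over the 198 named genes and 17 settings no direction was reversed where the main or the alternative value passed. Changes of sign in which neither value passed were not counted. In all, 3174 of 3350 values stayed on their side of the threshold. With only the 6 arrays compared, 34 named genes no longer passed. Over all genes, 755 were then higher and 816 lower at the adjusted p, against 1385 and 1572 in the main fit. With the fixed block 2 named genes no longer passed.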
